A study of Mus musculus with 9 samples.

Results

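The genes of 10 receptors through which platelets sense soluble agonists were followed in mature megakaryocytes (mMKs) of mice after ionizing radiation (IR). They were chosen by the agonist that their product binds, namely ADP (P2ry1, P2ry12), ATP (P2rx1), thrombin (F2r, F2rl2, F2rl3), thromboxane A2 (Tbxa2r), adrenaline (Adra2a), prostacyclin (Ptgir) and prostaglandin E2 (Ptger3). All 10 were found by name on the arrays, where they make up 10 of the 37316 genes named and 14 of 56605 probes. P2rx1 is an ATP-gated ion channel, whereas the products of the other genes are G-protein-coupled receptors.

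Platelets carry the receptors that megakaryocytes placed on them, and most platelet agonists act through a few G proteins. Receptors coupled to the Gq family, such as those for thromboxane A2 and thrombin and the P2ry1 receptor for ADP, release calcium and change platelet shape. Receptors coupled to the Gi family, such as the P2ry12 receptor, lower cyclic AMP and sustain aggregation, while the prostacyclin receptor acts through Gs, raises cyclic AMP and restrains platelets.

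The mice were male, and the study's methods name C57BL/6 as their wild-type strain. IR was a 5 Gy dose of gamma rays to the whole body, and the mMKs were taken from femur and tibia marrow 1 or 3 days post IR (1 dpi, 3 dpi) or from sham-irradiated controls (Ctrl), by selection for CD41 and then for CD42d. Each group had 3 arrays of RNA from different animals, 9 arrays in all, and the study's methods count n in mice. The age of these animals is not given in the sources used here. The arrays are Agilent 1-colour arrays, although the study's methods describe a chip of another maker. Between 69.1% (Ctrl replicate 1) and 81.8% (3 dpi replicates 1 and 3) of the spots on an array were well above background. Ctrl replicate 1 also lay alone on slide 1, and the other 8 arrays shared slide 2.

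The signal given here is the log2 spot intensity minus the 75th percentile of its array. A value of 0 thus means a probe as bright as that percentile. The 1 dpi arrays were dimmer, with a log2 75th percentile of 9.33, 9.45 and 9.43, against 10.03 to 10.66 on the other arrays. A gene was called when its Benjamini-Hochberg adjusted p in limma was under 0.05 over the 29410 genes tested and it differed at least 2-fold. All 10 receptor genes were tested, each through a probe that was well above background on all 9 arrays. With 3 arrays per group, the lowest p that an exact two-sided permutation test can reach is 0.1.

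At 3 dpi the signal of P2ry12 was 3.49-fold higher than in Ctrl, that of F2r was 2.69-fold lower and that of Tbxa2r was 2.01-fold lower. These were the 3 receptor genes called at 3 dpi, 1 higher and 2 lower. Over all genes tested, 6.98% were called higher and 1.82% lower. At 1 dpi limma called 0 of the 10 receptor genes against Ctrl, where 12.3% of all genes were called higher and 2.87% lower. At an unadjusted p under 0.05 it gave 3 of 10 receptor genes at 1 dpi, against 62.1% of all genes, and the methods' t-test with the same fold minimum called 0. Between 3 and 1 dpi P2ry12 was called higher and Tbxa2r lower, against 3.97% and 4.82% of all genes. These counts are small, and no test was run over the 10 genes as a list.

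The probes behind the 3 called genes are 60 bases long, and their first 30 bases are shown because each of these results rests on 1 probe. On the build mm9 of the array files the P2ry12 probe lies at chr3:59020598-59020657 on the minus strand, the F2r probe at chr13:96371902-96371961 on the minus strand and the Tbxa2r probe at chr10:80797520-80797579 on the plus strand.
P2ry12 probe: tgcacattaagatggtagaggtttaaaagg
F2r probe: tttccaaatactgtagagtcgcttccacga
Tbxa2r probe: tgagtgcttggtggactaaggacggagcta

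**Figure D1:**
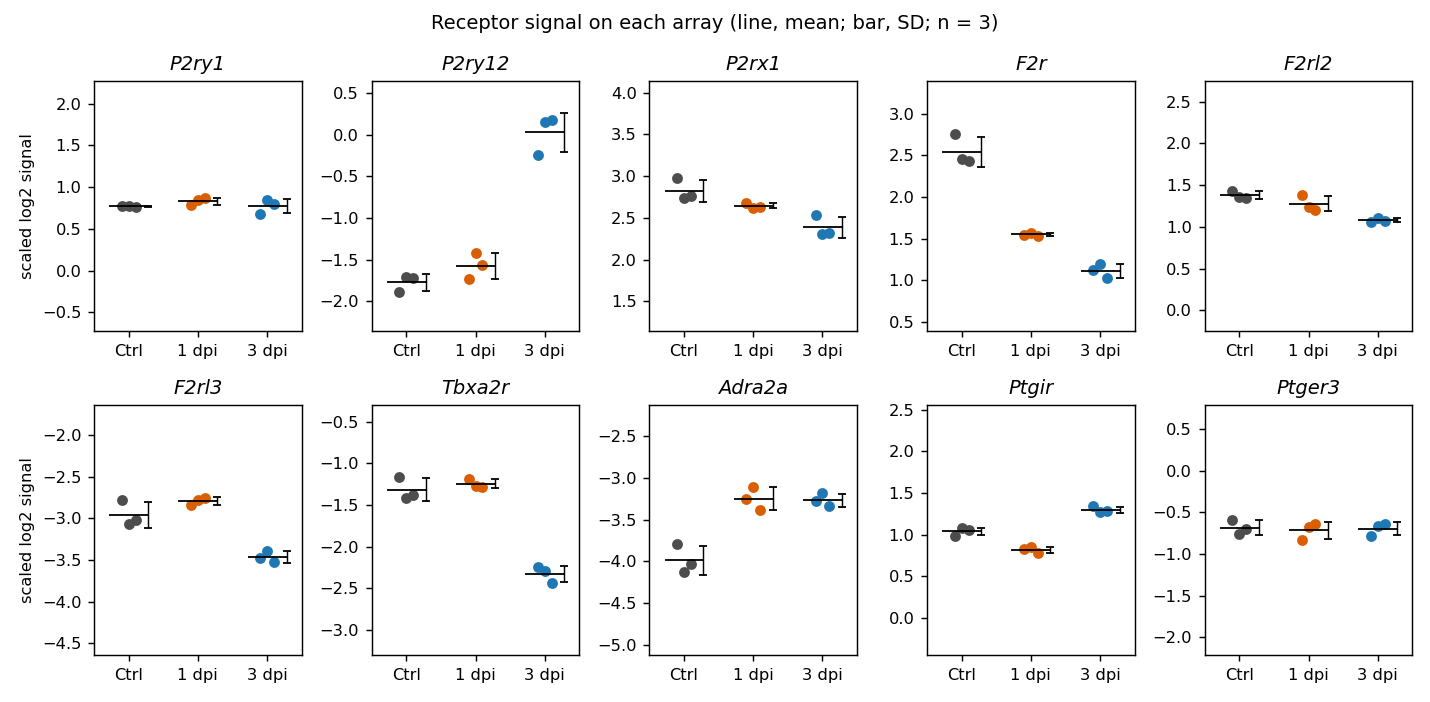
Scaled log2 signal of the 10 receptor genes on each array, with a point per array, a horizontal line for the mean and a bar for the SD (n = 3 per group). P2ry12 lay above and F2r and Tbxa2r lay below all Ctrl arrays at 3 dpi, with means of 0.03, 1.12 and -2.33.

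Among the receptors for adenine nucleotides, P2ry12, the Gi-coupled ADP receptor that thienopyridine drugs block, had a scaled log2 signal of -1.89, -1.71 and -1.72 on the Ctrl arrays. At 1 dpi it was -1.73, -1.42 and -1.56, and at 3 dpi -0.24, 0.16 and 0.17. The 3 dpi arrays all lay above the Ctrl and 1 dpi arrays, while the latter groups overlapped. P2ry12 therefore rose at 3 dpi by 1.80 on the log2 scale (SE 0.13, adjusted p = 3.8e-05 by limma) against Ctrl and by 1.60 (adjusted p = 0.00011) against 1 dpi. The difference between 1 dpi and Ctrl was 0.20 (adjusted p = 0.23), which did not pass the test.

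P2ry1, the Gq-coupled ADP receptor, lay between 0.68 and 0.86 on the log2 scale on all 9 arrays. Its log2 difference from Ctrl was 0.06 at 1 dpi and 0.01 at 3 dpi, with a 95% interval from -0.14 to 0.15 at 3 dpi. The intervals of the ADP receptors at 3 dpi thus did not overlap, since that of P2ry12 ran from 1.49 to 2.11. P2rx1, the ATP-gated channel, had a mean log2 signal of 2.82 ± 0.13 in Ctrl, 2.64 ± 0.03 at 1 dpi and 2.39 ± 0.13 at 3 dpi (SD, n = 3). Its log2 difference at 3 dpi was -0.44 (adjusted p = 0.0077 by limma), under the fold minimum. A dimmer probe of P2rx1 gave -0.33 at 3 dpi (adjusted p = 0.0041 over all probes). The probes differed at 1 dpi, where the dimmer gave -0.35 (adjusted p = 0.0019) and the brighter -0.18 (0.13), and between 3 and 1 dpi, where they gave 0.02 (0.81) and -0.26 (0.051).

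The thrombin receptors are cleaved by thrombin and then activated by their own new end. Mouse platelets are known to respond to thrombin through the products of F2rl3 and, as its cofactor, F2rl2, whereas human platelets use those of F2r and F2rl3. The F2r signal was 2.75, 2.46 and 2.43 in Ctrl, 1.54, 1.57 and 1.53 at 1 dpi and 1.12, 1.20 and 1.03 at 3 dpi, on the log2 scale. Its 3 groups did not overlap and stood in the order Ctrl, 1 dpi, 3 dpi. F2r fell by 1.43 on the log2 scale (SE 0.10, adjusted p = 2.3e-05 by limma) between Ctrl and 3 dpi. At 1 dpi its log2 difference was -0.99 with an adjusted p of 0.00013, a 1.99-fold difference just short of the fold minimum. The difference between 3 and 1 dpi was -0.43 (adjusted p = 0.0084), also under that minimum.

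F2rl3 and F2rl2 were not called in any comparison. The F2rl3 log2 signal was -2.96 ± 0.16 in Ctrl, -2.79 ± 0.04 at 1 dpi and -3.46 ± 0.07 at 3 dpi (SD, n = 3). Its arrays at 3 dpi lay below all others, with a log2 difference of -0.51 from Ctrl (adjusted p = 0.0035) and of -0.67 from 1 dpi (adjusted p = 0.00078). F2rl2 differed by -0.30 at 3 dpi (adjusted p = 0.0098) and by -0.10 at 1 dpi (adjusted p = 0.2).

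Tbxa2r encodes the receptor for thromboxane A2, the lipid that activated platelets make through cyclooxygenase. Its log2 signal was -1.16, -1.42 and -1.38 in Ctrl, -1.19, -1.27 and -1.28 at 1 dpi and -2.25, -2.30 and -2.44 at 3 dpi. The Ctrl and 1 dpi arrays overlapped and all lay above those at 3 dpi. Tbxa2r fell by 1.01 on the log2 scale at 3 dpi against Ctrl (SE 0.09, adjusted p = 9.9e-05) and by 1.08 against 1 dpi (adjusted p = 1e-04). Its difference between 1 dpi and Ctrl was 0.07 (adjusted p = 0.5). The 3 dpi value lies at the fold minimum, and the call was lost in 8 of 27 other settings, among them leaving out Ctrl replicate 1 (-0.93).

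**Figure D2:**
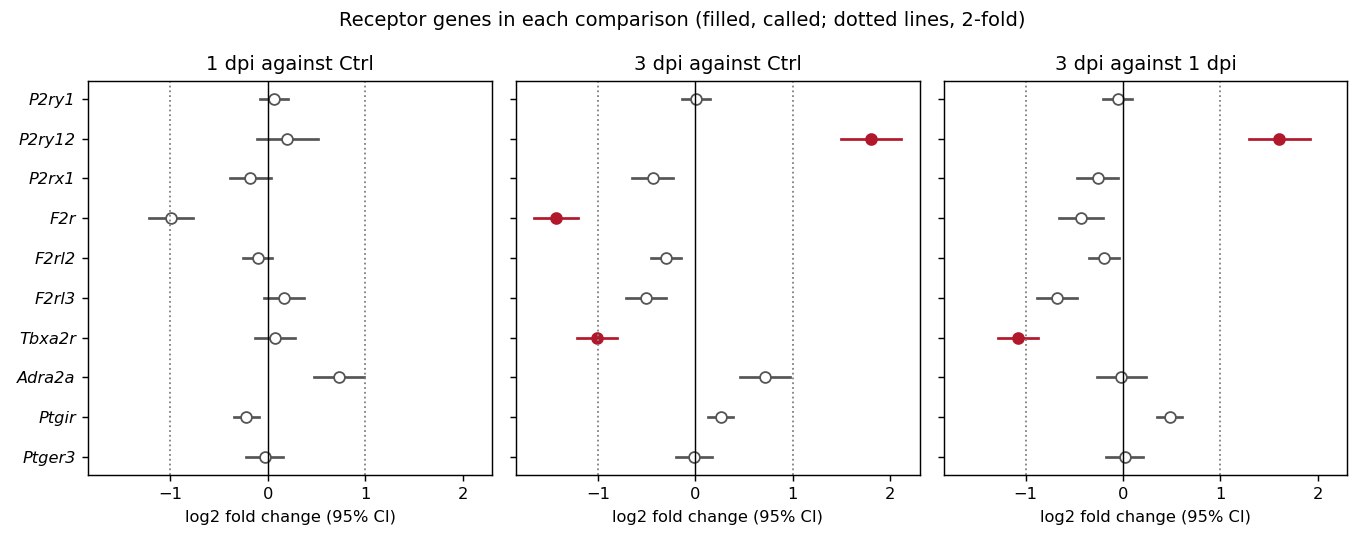
Log2 fold change of each receptor gene in the 3 comparisons, with the 95% interval of the limma fit. Filled points are called genes and dotted lines mark a 2-fold difference. P2ry12 (1.80 and 1.60) and Tbxa2r (-1.01 and -1.08) are filled in both comparisons with 3 dpi, and F2r (-1.43) in that of 3 dpi with Ctrl.

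Adra2a, the Gi- and Gz-coupled adrenaline receptor, had a log2 signal of -3.79, -4.13 and -4.03 in Ctrl. It was -3.25, -3.11 and -3.39 at 1 dpi and -3.28, -3.18 and -3.34 at 3 dpi. In this scaled signal both irradiated groups lay above Ctrl and overlapped each other. Before scaling its intensity was 75.7 to 98.8 in Ctrl, 65.8 to 80.8 at 1 dpi and 136 to 165.5 at 3 dpi. The rise at 1 dpi thus appears only after the dimmer arrays are scaled. Adra2a and F2rl3 were the dimmest receptors used. The log2 difference from Ctrl was 0.73 at 1 dpi (adjusted p = 0.001) and 0.72 at 3 dpi (adjusted p = 0.0018). These 1.66-fold and 1.64-fold differences lay under the fold minimum, so that the gene was not called. In 27 other settings the log2 difference ranged from 0.24 to 0.83 at 1 dpi and from 0.35 to 0.81 at 3 dpi. The adjusted p at 1 dpi was not under 0.05 in every one of them.

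Of the prostanoid receptors, Ptgir, the inhibitory receptor for prostacyclin, had a mean log2 signal of 1.04 ± 0.05 in Ctrl, 0.82 ± 0.04 at 1 dpi and 1.30 ± 0.04 at 3 dpi (SD, n = 3). Its 3 groups did not overlap, and 1 dpi was the lowest and 3 dpi the highest of them. The log2 difference was -0.22 at 1 dpi (adjusted p = 0.012), 0.26 at 3 dpi (adjusted p = 0.0096) and 0.48 between 3 and 1 dpi (adjusted p = 0.00047), all under the fold minimum. Ptger3, the Gi-coupled prostaglandin E2 receptor, lay between -0.83 and -0.59 on all arrays, and its groups overlapped in each comparison. Of the 3 other Ptger3 probes, 1 was well above background on 0 arrays, and the others differed at 1 dpi by 0.34 and 0.42 on the log2 scale (adjusted p = 0.094 and 0.13).

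By adjusted p alone, without a fold minimum, 3 receptor genes were higher and 5 lower at 3 dpi, against 16.9% and 15.1% of all genes. At 1 dpi 1 was higher and 2 lower, against 34.8% and 21.1%, and between 3 and 1 dpi 2 were higher and 4 lower, against 19.8% and 24.9%. In 5 receptor genes (1 dpi), 8 (3 dpi) and 7 (3 dpi against 1 dpi) every array of a group lay on the same side of those of the other, which held for 67.5%, 47.0% and 65.5% of all genes. After scaling, the log2 differences of all genes were not centred on 0, with a median of 0.25 at 1 dpi and 0.11 at 3 dpi, and of -0.11 for 3 dpi against 1 dpi. The receptor median was 0.02, -0.16 and -0.13 in that order. Relative to the median of all genes at 3 dpi, P2ry12 was at 1.69, F2r at -1.54 and Tbxa2r at -1.12. At 1 dpi F2r was at -1.24 relative to that median, and Adra2a at 0.49.

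F2r at 1 dpi and Tbxa2r at 3 dpi depend on how the 75th percentile is taken. Over the non-control spots, as used here, the F2r difference was -0.99 and not called. Over all probes or over all spots with the controls it was -1.02 and called, and over the probes kept by the filter it was -0.97. The Tbxa2r difference was -1.01 and called over the non-control spots and -0.9995 and not called over the probes kept. The values thus moved by hundredths around the fold minimum. Within slide 2, without Ctrl replicate 1, the log2 differences at 3 dpi were 1.75 for P2ry12, -1.32 for F2r and -0.93 for Tbxa2r, and Tbxa2r was no longer called. A fit with slide as a block gives the same values, since slide 1 holds 1 array.

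**Figure D3:**
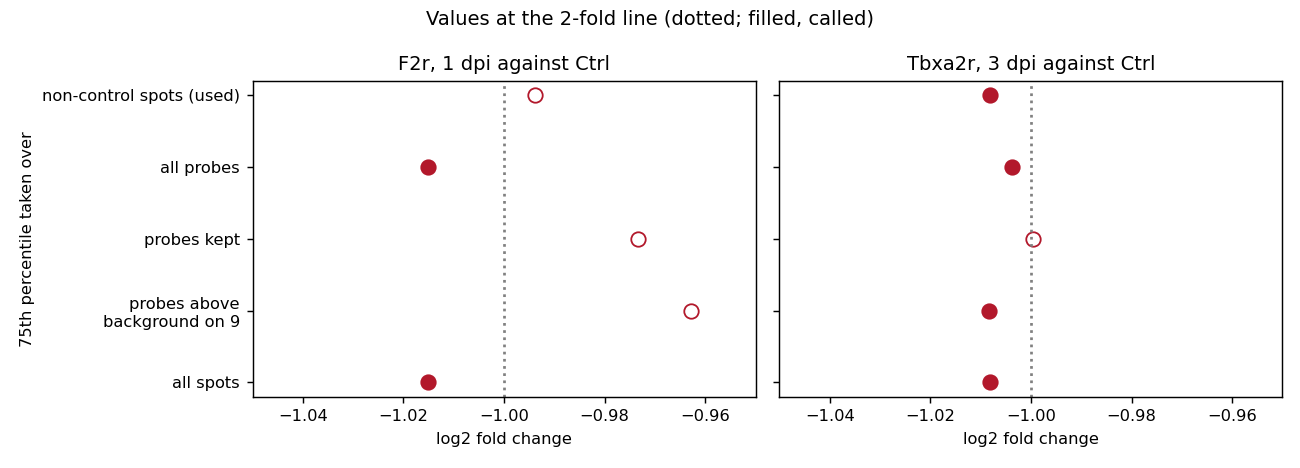
Log2 fold change of F2r at 1 dpi and of Tbxa2r at 3 dpi under 5 ways of taking the 75th percentile by which arrays were scaled, on a narrow axis around the 2-fold line (dotted). Filled points are called, and F2r ranges from -1.02 to -0.96 and Tbxa2r from -1.01 to -0.9995.

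The sequences upstream of the called genes are shown because F2r and Tbxa2r both fell and P2ry12 rose at 3 dpi. They hold the 250 bases before the annotated start, from RefSeq on GRCm38.p6, at chr3:59262986-59263235 on the minus strand for P2ry12, chr13:95618467-95618716 on the minus strand for F2r and chr10:81328018-81328267 on the plus strand for Tbxa2r. Capitals mark matches on either strand to motifs bound by factors of megakaryocytes, which were chosen after the values had been seen.
P2ry12 promoter: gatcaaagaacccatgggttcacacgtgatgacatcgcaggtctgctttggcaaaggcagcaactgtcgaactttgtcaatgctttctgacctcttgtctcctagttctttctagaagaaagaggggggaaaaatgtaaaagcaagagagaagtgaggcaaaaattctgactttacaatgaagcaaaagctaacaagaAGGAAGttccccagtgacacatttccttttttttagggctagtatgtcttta
F2r promoter: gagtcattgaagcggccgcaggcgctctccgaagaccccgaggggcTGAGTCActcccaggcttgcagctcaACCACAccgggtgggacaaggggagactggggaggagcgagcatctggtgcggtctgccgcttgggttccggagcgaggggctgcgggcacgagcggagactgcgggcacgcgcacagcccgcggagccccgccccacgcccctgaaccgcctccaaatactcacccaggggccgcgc
Tbxa2r promoter: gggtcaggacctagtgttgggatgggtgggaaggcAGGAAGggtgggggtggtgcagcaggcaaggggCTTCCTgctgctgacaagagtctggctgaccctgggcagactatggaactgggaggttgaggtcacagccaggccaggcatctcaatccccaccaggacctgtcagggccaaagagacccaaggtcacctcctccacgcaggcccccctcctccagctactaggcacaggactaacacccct

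GATA factors are known to bind AGATAA, ETS factors to bind AGGAAG, RUNX factors to bind TGTGGT, and NF-E2 and AP-1 to bind TGANTCA. Of 32851 promoters of the same length, 9.99% hold AGATAA, 29.5% AGGAAG, 14.05% TGTGGT and 6.75% TGANTCA. The P2ry12 window has 1 match to AGGAAG. The F2r window has 1 match to TGANTCA and 1 to TGTGGT, and that of Tbxa2r has 2 matches to AGGAAG, while a window before another Tbxa2r start has 0 matches. Receptor genes that were not called hold these motifs as well, with 2 matches to AGGAAG before F2rl3, 1 before Ptgir and 1 before F2rl2, 2 matches to TGANTCA before F2rl2, and 1 match to AGATAA before each of P2rx1, F2rl2 and F2rl3. A match is a description of these letters and not of a bound site.

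The 8 genes nearest in order to each called receptor, 4 on either side, were looked up after the values had been seen. Of the 4 tested around P2ry12 on chromosome 3, which include other nucleotide receptors, 1 was called higher at 3 dpi, against 6.98% of all genes. P2ry13, a Gi-coupled ADP receptor, rose at 3 dpi by 1.16 on the log2 scale (adjusted p = 8.4e-06), whereas P2ry14, a receptor for UDP-sugars, differed by -0.41, Gpr171 by -0.93 (adjusted p = 1.9e-05) and Igsf10 by 0.57. F2r lies on chromosome 13 between F2rl1, which was not tested, and Iqgap2, with F2rl2 beyond the latter. Of the 7 tested around F2r, Sv2c, a synaptic vesicle protein, rose at 3 dpi by 1.78 (adjusted p = 1.1e-05) and at 1 dpi by 1.41. S100z rose at 1 dpi by 1.55 and was well above background on 2 of 3 Ctrl arrays, while Iqgap2 differed by -0.26 at 3 dpi. At 3 dpi 1 of these 7 was called higher and 0 lower, with 5 at an unadjusted p under 0.05 (41.5% of all genes), and 6.98% of all genes were called higher and 1.82% lower. With limma 0 of the 8 genes around Tbxa2r were called in any comparison, with 4, 2 and 2 at an unadjusted p under 0.05 at 1 dpi, at 3 dpi and between them, against 62.1%, 41.5% and 52.5% of all genes.

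The genes whose scaled log2 signal was most like that of a called receptor were ranked by Pearson correlation over the 9 arrays among 24006 genes well above background on all of them. For P2ry12 they were Psap (r = 0.992), a lysosomal sphingolipid activator, the array's own NAP111447-1 (0.991) and Omd (0.990), a matrix protein of bone. For F2r they were Cd79a (0.998), a subunit of the B cell antigen receptor, Ivns1abp (0.997) and a transcript without a gene symbol (0.997). For Tbxa2r they were Emid1 (0.998), Kif17 (0.997) and Capn5 (0.995). Many genes share such a pattern, since the arrays fall into 3 groups, and 208, 517 and 322 genes had an r over 0.95 with P2ry12, F2r and Tbxa2r.

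Markers of megakaryocytes and of other marrow cells were read as well. The megakaryocyte and platelet list (18 genes, brightest Pf4) had a summed linear signal of 169.1 to 191.4 times the 75th percentile in Ctrl, 157.9 to 173.3 at 1 dpi and 179.6 to 185.2 at 3 dpi. With limma 0 of these 18 were called in any comparison, with 11, 9 and 11 at an unadjusted p under 0.05 at 1 dpi, at 3 dpi and between them, against 62.1%, 41.5% and 52.5% of all genes. The markers of the cell type that the labels name were thus bright in all groups, but they were not the brightest list. The neutrophil list and the mast, basophil and eosinophil list, given below, had larger sums in every group. The erythroid list and the monocyte and dendritic list had larger sums at 1 dpi. Sums over different genes do not measure the share of a cell type.

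Of 9 B cell markers (brightest Cd79b), 8 fell at 1 dpi and 8 at 3 dpi, and the summed signal of the list went from 29.6, 27.9 and 28.7 in Ctrl to 5.90, 5.65 and 5.82 at 1 dpi and 5.74, 5.57 and 5.57 at 3 dpi. Of 13 macrophage markers (brightest Csf1r), 5 rose and 2 fell at 1 dpi and 9 rose at 3 dpi, with a summed signal of 62.0, 55.5 and 53.4 in Ctrl, 83.0, 77.8 and 81.9 at 1 dpi and 146.6, 144.3 and 141.8 at 3 dpi. Of 10 stromal markers (brightest Cxcl12), 7 rose at 1 dpi and 6 at 3 dpi, and the sum went from 10.3, 9.92 and 10.4 in Ctrl to 51.1, 44.0 and 47.9 at 1 dpi and to 93.0, 84.8 and 91.3 at 3 dpi. P2ry12 is also known from microglia and other macrophages, and F2r from stromal and endothelial cells. The part of these cells in the receptor results was not tested. In such bulk samples fewer cells of a type and less RNA per cell cannot be told apart.

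**Figure D4:**
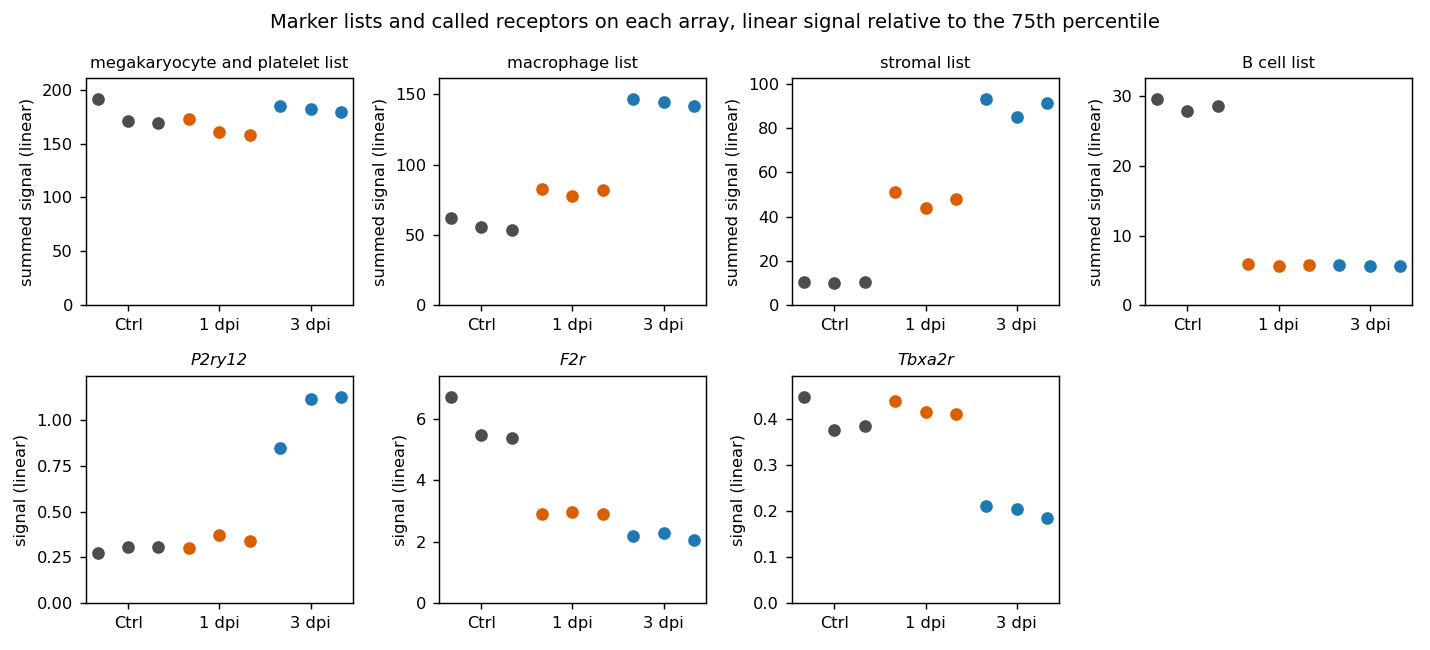
Summed linear signal, relative to the 75th percentile, of 4 marker lists and the signal of the 3 called receptor genes on each array. At 3 dpi the macrophage and stromal sums (141.8 to 146.6 and 84.8 to 93.0) and P2ry12 are at their highest, whereas the B cell sum (5.57 to 5.74), F2r and Tbxa2r are low.

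Of 5 tested markers of microglia-like macrophages (brightest Siglech; Sall1 was not well above background), limma called 0 at 3 dpi, with 3 at an unadjusted p under 0.05 (41.5% of all genes), and 1 at 1 dpi, Siglech, which rose. The sum was 21.7 to 37.6 in Ctrl, 50.8 to 56.2 at 1 dpi and 33.0 to 37.6 at 3 dpi. Of 9 endothelial markers (brightest Egfl7) 4 rose at 1 dpi and 6 at 3 dpi, with a sum of 7.84 to 8.31 in Ctrl, 12.2 to 13.9 at 1 dpi and 14.7 to 17.2 at 3 dpi. Of 9 erythroid markers (brightest Hba-a1) 6 fell and 1, Hba-a1, rose at 1 dpi, while 7 fell at 3 dpi. Their sum, led by Hba-a1, was 119.4 to 138.8 in Ctrl, 226.7 to 284.4 at 1 dpi and 43.2 to 46.3 at 3 dpi. The 9 neutrophil markers (brightest Mpo) had a sum of 1031 to 1093 in Ctrl, 1694 to 1846 at 1 dpi, where 2 rose, and 1027 to 1151 at 3 dpi, where 0 were called and 1 had an unadjusted p under 0.05 (41.5% of all genes). Of 7 tested monocyte and dendritic markers (brightest Ly6c2; Xcr1 was not well above background), 1 rose and 2 fell at 1 dpi, whereas 1 rose and 1 fell at 3 dpi, with a sum of 133.4 to 150.5 in Ctrl, 208.1 to 220.1 at 1 dpi and 139.6 to 146.6 at 3 dpi. At 1 and 3 dpi limma called 3 and 1 higher of 8 mast, basophil and eosinophil markers (brightest Prg2), whose sum was 413.2 to 444.7 in Ctrl, 878.8 to 898.2 at 1 dpi and 526.2 to 572.7 at 3 dpi. Of 9 T and NK cell markers (brightest Nkg7) it called 3 and 4 higher, and the sum was 30.6 to 32.3 in Ctrl, 42.6 to 45.8 at 1 dpi and 35.9 to 40.8 at 3 dpi. Beside these lists, the shares of all genes called higher and lower were 12.3% and 2.87% at 1 dpi and 6.98% and 1.82% at 3 dpi.

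Genes around the receptors were described in 5 lists. Of 30 related receptors 27 were tested (F2rl1, P2ry4 and Ptgdr were not), with 5 called higher and 0 lower at 1 dpi, 5 and 0 at 3 dpi, and 2 and 0 between 3 and 1 dpi. The shares of all genes called higher and lower were 12.3% and 2.87%, 6.98% and 1.82%, and 3.97% and 4.82%. P2ry6, a receptor for UDP, rose at 3 dpi by 2.82 on the log2 scale (SE 0.09), with 1.26 for its other probe. P2rx7, an ATP-gated channel of immune cells, rose at 3 dpi by 1.43, and Ptafr, the receptor for platelet-activating factor, at 1 dpi by 1.399. P2ry10 was higher at 3 than at 1 dpi by 1.21. P2ry6 and P2rx7 were also called higher at 1 dpi, by 2.07 and 1.11. Named after their values were seen, the other called genes were Adra2c and Ptgfr at 1 dpi, and Adora2b, P2ry13 and Ptgfr at 3 dpi. Ptgfr was also called between 3 and 1 dpi. It was well above background on 1 Ctrl array, 1 array at 1 dpi and 3 arrays at 3 dpi, and Adra2c on 2 of 3 Ctrl arrays. The list median was 0.48 at 1 dpi and 0.14 at 3 dpi, against 0.25 and 0.11 for all genes.

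Of 18 G protein subunits 2 rose at 1 dpi and 2 at 3 dpi, namely Gng11 and Gnai1, against 12.3% and 6.98% of all genes called higher. Gng11, a gamma subunit abundant in platelets, rose at 3 dpi by 1.44 on the log2 scale (SE 0.13). Gnai1, an alpha subunit of the Gi family, rose between 1 and 3 dpi by 1.20 and was well above background on 2 of 3 Ctrl arrays. The list median was 0.03 at 3 dpi.

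Of 30 effectors, such as phospholipase C beta forms, Rap1 and adenylyl cyclases, limma called 0 in any comparison, with 20 at 1 dpi, 17 at 3 dpi and 16 between them at an unadjusted p under 0.05, which 62.1%, 41.5% and 52.5% of all genes had. Their median log2 difference at 3 dpi was -0.05. Of 24 genes that restrain receptor signalling, 1 fell at 3 dpi and 1 fell between 1 and 3 dpi, against 1.82% and 4.82% of all genes called lower. Prkg1, the cyclic GMP-dependent kinase, fell by 1.35 at 3 dpi against Ctrl, and Rgs1, which speeds up the GTPase of G proteins, fell by 1.15 between 1 and 3 dpi. At 1 dpi limma called 0 of these 24, with 17 at an unadjusted p under 0.05 (62.1% of all genes).

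Of 28 genes that make, move or remove the agonists, limma called 4 higher and 1 lower at 1 dpi, 5 and 0 at 3 dpi, and 4 and 1 between 3 and 1 dpi. Of all genes 12.3% and 2.87%, 6.98% and 1.82%, and 3.97% and 4.82% were called so, and 1 of the 4 at 1 dpi, Serpind1, was well above background on 0 arrays of both groups. Slco2a1, the transporter that takes up prostaglandins, rose at 1 dpi by 4.39 on the log2 scale (SE 0.45), from -2.87, -1.22 and -1.01 in Ctrl to 2.99, 2.57 and 2.51. Its arrays at 3 dpi lay at -0.55, -0.38 and -0.43, between the other groups, and its 3 probes gave 1.42 to 4.39 at 1 dpi. Hpgd, which inactivates prostaglandins, went the other way at 1 dpi, with -0.28, -0.36 and -0.34 in Ctrl and -3.44, -3.28 and -3.13 at 1 dpi. It fell by 2.96 (SE 0.12), and the difference from Ctrl at 3 dpi was -0.15 (adjusted p = 0.37). The prostaglandin transporter and the degrading enzyme thus changed in opposite directions at 1 dpi.

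Entpd2, an ectonucleotidase that converts ATP to ADP, rose at 3 dpi by 1.84 (SE 0.21), and Serpine2, an inhibitor of thrombin, rose at 1 dpi by 1.65 (SE 0.12) on the log2 scale. Named after their values were seen, Maob was called at 1 and 3 dpi, and Thbd and Serpind1 at 3 dpi. Enpp3 and again Serpind1 were called between 3 and 1 dpi. Maob was well above background on 2 of 3 Ctrl arrays, and Enpp3 on 2 of 3 arrays at 1 dpi. Serpind1 was not well above background on any Ctrl or 1 dpi array, so that its call at 1 dpi gives no fold, and at 3 dpi it was at least 3.37-fold higher than in Ctrl and at least 1.90-fold higher than at 1 dpi. This bound sets the 3 dpi mean against the Serpind1 signal or the lowest signal well above background, whichever was higher, on each Ctrl or 1 dpi array.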

How the data were processed

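RNA of mMKs was measured on 9 Agilent 1-colour arrays, 3 per group. For every array the authors provide the intensity of its spots from Agilent Feature Extraction 10.7.1.1 (named in the submitters' processing notes), background-subtracted and not scaled between arrays. Their deposited log2 table, with 1 value per gene name, served as an alternative. Its column medians lie between 5.79 and 5.87, and how it was normalized is not given in the sources used here. After quantile normalization of the log2 spot intensities, the closest probe of each receptor lay within 0.0111 of its values on every array. For the receptors this alternative is therefore close to the quantile setting. For 9 of 10 receptors the closest probe is the one used here. The deposited values do not differ from the scaled signal by the same amount on every array. For Ptger3 the deposited table follows a probe well above background on 0 arrays.

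Of 62976 spots per array 3671 were controls and were left out with outlier spots, which removed 20 of 56605 probes, and no spot was saturated. Spots of a probe were averaged. Probes were named through RefSeq accessions (GRCm38.p6 gene table, 32984 probes) and otherwise by the array files (23601). From each log2 intensity the 75th percentile of the array's non-control spots was subtracted. A probe was kept when some group had it well above background on all its arrays (44300), and the brightest probe stood for its gene. The 75th percentile can be taken in several ways, and 5 were computed after the data had been seen. The non-control spots were kept because an earlier processing of these data used them, and not for which receptors they call. Groups were fitted together with limma 3.58.1 in R 4.3.3, data.table (release 1.17.8) read the files, and calls were checked on simulated data. There were 14 planned and 4 added alternatives, besides leaving out each of 9 arrays.

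The members and lists were chosen with earlier results of these data known. Named genes are the 10 receptors with all probes, the up to 4 called genes of each of 5 lists with the largest change among those detected in full in both groups compared, the 3 genes most like each called receptor, and of each of 11 marker lists its brightest gene and those not above background. Outside this rule, some neighbours of the called receptors and the other called genes of the lists were named after the values had been seen. Of the deposited columns 0 were left unused.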

Additional observations from a re-analysis of the deposited data

Results flagged for a closer look

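P2ry12 and Tbxa2r stood apart between the time points. The P2ry12 change from Ctrl at 3 dpi exceeded that at 1 dpi by 1.60 on the log2 scale (adjusted p = 0.00011 by limma), and higher values were seen in 3 of 3 arrays at 3 dpi. For Tbxa2r the change at 3 dpi minus that at 1 dpi was -1.08 (adjusted p = 1e-04), again with all 3 arrays on that side. The controls cancel in both values, which are those of 3 dpi against 1 dpi. The P2ry12 difference passed the test and the fold minimum in 27 of 27 other settings and that of Tbxa2r in 22 of 27. Not all of these settings are independent.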

How the results depend on the processing

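P2ry12 was called at 3 dpi (1.57 to 1.94 on the log2 scale) and between 3 and 1 dpi (1.37 to 1.80), and F2r at 3 dpi (-1.57 to -1.32), in 27 of 27 other settings. These settings are not all independent. Dropping the fold minimum cannot remove a call, and averaging probes changes no fold change of a gene with 1 probe. Slide as a block gives the values of leaving out Ctrl replicate 1. For these receptors the deposited table lies close to quantile normalization. Of all receptor fold changes under these settings, 710 stayed called or stayed uncalled within 1 SD of the replicates, 66 stayed uncalled and moved by more, 21 passed the threshold and 13 lost it, and 0 called values changed sign. Many of the 21 passed only because the fold minimum was dropped. Tbxa2r at 3 dpi ranged from -1.15 to -0.81 and lost its call under quantile normalization, under normexp with either scaling, in the deposited table, with slide as a block, with the percentile over the probes kept, and without Ctrl replicate 1 (-0.93) or 3 dpi replicate 3. F2r at 1 dpi ranged from -1.34 to -0.89 and was called in 10 of 27. Among uncalled values, the sign of P2ry1 in each comparison, of P2ry12 and Tbxa2r at 1 dpi (array median, or relative to the median of all genes), of F2rl3 at 1 dpi (these, quantile normalization with and without normexp, and the deposited table), of Ptger3, and of Adra2a and F2rl2 between 3 and 1 dpi flipped with the setting.

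At 1 dpi 1 receptor was called under array median scaling, relative to the median of all genes, under normexp with either scaling and with the percentile over all probes or all spots, and 3 without a fold minimum, against 0, and leaving out each array gave 0 to 1. At 3 dpi 8 were called without a fold minimum, against 3, and leaving out each array gave 2 to 3. Between 3 and 1 dpi 1 was called under quantile normalization, array median scaling, relative to the median, normexp with quantile normalization and in the deposited table, and 6 without a fold minimum, against 2, and leaving out each array gave 2 to 2. The percentile definitions were chosen after seeing the data. The cause of these differences was not tested. With the replicate block 0, 3 and 2 receptors were called at 1 dpi, 3 dpi and between them, and no receptor call changed. Correlations of same-numbered arrays lay between -0.11 and 0.13, so that the numbers are not shown to pair the arrays.

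Over all genes 4468, 2587 and 2588 were called at 1 dpi, 3 dpi and between them, against 2799, 1292 and 1603 with normexp and the percentile, 1667, 1147 and 1088 with normexp and quantile normalization, and 16443, 9416 and 13125 without a fold minimum. Without a filter on dim probes 4489 were called between 3 and 1 dpi. The share of higher calls was 81.1% at 1 dpi, against 56.3% (quantile), 45.0% (array median), 54.9% (relative), 68.7% (normexp and quantile) and 50.3% (deposited). At 3 dpi it was 79.4%, against 66.1% (deposited). Between 3 and 1 dpi it was 45.2%, against 62.9%, 68.2% and 58.1% (quantile, array median, relative), 24.9% (normexp and percentile) and 60.3% (deposited). The methods' t-test gave 3, 8 and 7 receptors at its threshold and 3, 7 and 6 after Benjamini-Hochberg adjustment, against 53.3%, 35.8% and 57.5% and then 42.9%, 24.2% and 48.7% of all genes. Adra2a and F2rl3 were the dimmest receptors used, with scaled values from -4.13 to -2.75.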
